A study of Mus musculus with 10 samples.

Results

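The axon guidance ligands and receptors are the genes whose symbols name a class 3 to 7 semaphorin, a plexin, a neuropilin, an Eph receptor, an ephrin, a Robo receptor, a Slit, a netrin, an Unc5 receptor or Dcc. The rule takes members by symbol alone and uses no measured value, though it was set with earlier results of these data known. Of the 69 symbols that the rule finds in the RefSeq annotation, 68 were measured by a probe set annotated to 1 gene, among 19939 genes tested. Ephb2 was not analysed here. The members were 20 semaphorins, 9 plexins, 2 neuropilins, 13 Eph receptors, 8 ephrins, 4 Robo receptors, 3 Slits, 4 netrins and 5 netrin receptors.

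RNA from both hippocampi of each 16-week-old male was measured on its own Affymetrix Mouse Gene 1.0 ST array. The Dp3Yah group (5 mice) is a Down syndrome model that carries Dp(16Hspa13-App)3Yah, which gives 3 copies, against 2 in controls, of chromosome 16 from Hspa13 to Gabpa, while App has only 2 complete copies. The control group (5 mice) was formed by littermates without the duplication, and the labels give C57BL/6N as the background of both groups. The duplication is carried in the germline and so by every cell type of the tissue. Levels are RMA values on the log2 scale, so that a difference of 1 is a 2-fold difference, and levels of different genes were not set against each other because probe sets differ in brightness.

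Axon guidance works through pairs of secreted or membrane-bound ligands and the receptors that growth cones carry. Class 3 semaphorins are secreted and bind neuropilins, which signal with plexins, ephrins and Eph receptors signal at cell contacts in both directions, Slits bind Robo receptors, and netrins bind Dcc and the Unc5 receptors. In the hippocampus these proteins lay out the entorhinal, mossy fibre and commissural projections during development, and in the adult many of them act at synapses. Robo1, Robo2 and Epha3 were set apart as the 3 chromosome 16 members nearest the duplicated interval. They lie before it, in 2 copies in both groups.

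Array medians over the 19939 genes ranged from 6.32 to 6.41 on the log2 scale. Dp3Yah replicate 2 stood apart from the other mice on the first principal component of the within-group deviations (29.0% of their variance), and it had the lowest mean of the markers of neocortex and subiculum. Markers of hippocampal neurons were present, with 13 of 14 dentate granule cell markers and 11 of 12 pyramidal cell markers above the median level of all genes. Means of 9 choroid plexus markers fell between 7.43 and 8.25 in Dp3Yah replicates 1, 2 and 5 and in control replicates 1 and 5, and between 6.16 and 6.38 in the other 5 mice. All 11 microglia markers were higher in Dp3Yah mice (means of 7.87 to 8.07 against 7.77 to 7.88 in controls). So were all 8 astrocyte markers (means of 9.88 to 9.99 against 9.79 to 9.97). None of either list passed by limma's adjusted p, and their part in the guidance gene values was not tested. The labels were checked on Hspa13, which was 0.60 higher in Dp3Yah mice (SE 0.069, n = 5 per group, limma adjusted p = 0.0122), with Ncam2 0.58 higher and Mrpl39 0.48 higher.

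Expression of the guidance genes was not detectably different between Dp3Yah and control hippocampi. None of the 68 members passed limma's test at an adjusted p under 0.05 over all genes, the threshold used throughout, against 0.015% of all genes (3 of 19939, the 3 interval genes just named). The smallest adjusted p among the members was 0.922. The median difference of the members was 0.002 on the log2 scale and that of all genes -0.005. Of the members, 36 were higher and 32 lower in Dp3Yah mice. The widest differences were 0.19 for Sema3e and -0.18 for Sema3f. For all 68 members the 95% confidence interval of the difference lay inside the limits that a 1.5-fold change would set (0.58 on the log2 scale, the ratio of 3 copies to 2), which also held for 99.6% of all genes. It held for Mrpl39 too, an interval gene that was 0.48 higher (95% confidence interval 0.376 to 0.575). Lying inside these limits therefore does not by itself exclude a difference as large as that of Mrpl39.

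**Figure D1:**
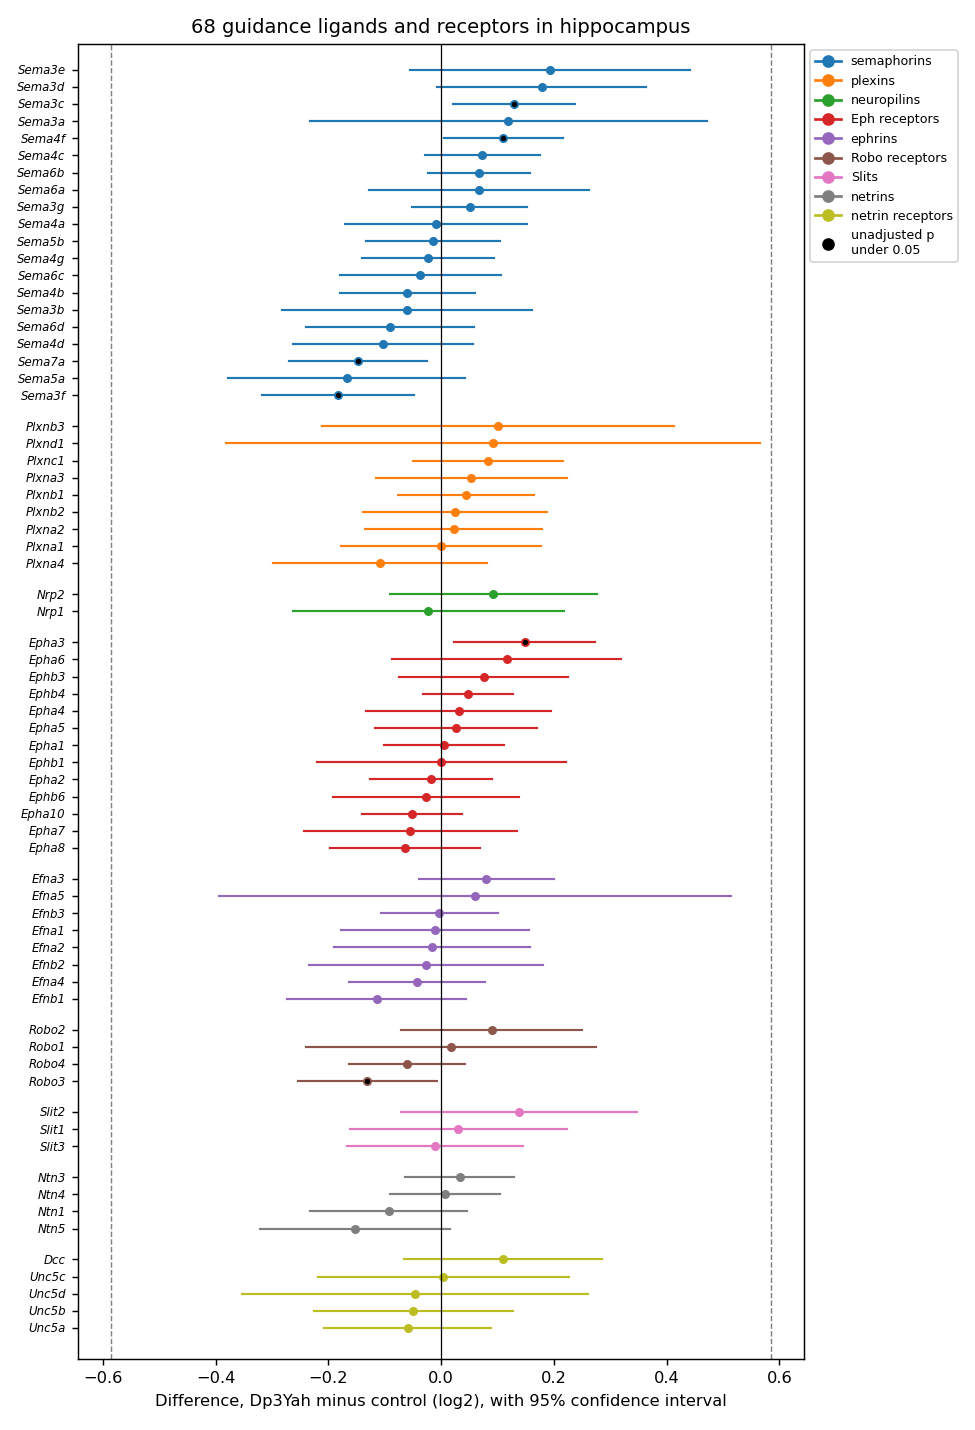
Difference in level between Dp3Yah and control mice (horizontal axis, log2) for each of the 68 guidance genes, ordered within families, with 95% confidence intervals from limma (n = 5 mice per group). Dashed lines mark a 1.5-fold change in either direction and black centres mark the 6 genes with an unadjusted p under 0.05. All intervals lie between the dashed lines.

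The 3 members near the duplication are receptors of 2 families. Robo1 and Robo2 bind Slit ligands and mediate repulsion of axons, and Epha3 binds ephrin-A ligands. On chromosome 16 of GRCm38.p6, Robo2 (chr16:73891976-75447443) ends 308 kb before Hspa13, Robo1 (chr16:72027518-73047491) ends 2.71 Mb before it, and Epha3 (chr16:63543532-63864175) ends 11.9 Mb before it. Robo2 and Epha3 are transcribed away from the duplication, so their 5′ ends face it. In the RefSeq-derived table Robo2 has 3 annotated starts, of which the nearest and the farthest lie 308 and 1343 kb from Hspa13. A promoter window runs from 250 bases before an annotated start to 50 after it. The window of the middle Robo2 start (chr16:75092721-75093020) held 5 CG dinucleotides and is not printed. The Robo1 window lies inside the annotated span of that gene, not at its 5′ end. The windows of the nearest and farthest Robo2 starts are printed here with those of Robo1 and Epha3, to place these starts against the duplication. They read 5′ to 3′ on the strand of the gene, with every CG dinucleotide in capitals:
Robo2, start nearest the duplication, chr16:75447244-75447543, minus strand: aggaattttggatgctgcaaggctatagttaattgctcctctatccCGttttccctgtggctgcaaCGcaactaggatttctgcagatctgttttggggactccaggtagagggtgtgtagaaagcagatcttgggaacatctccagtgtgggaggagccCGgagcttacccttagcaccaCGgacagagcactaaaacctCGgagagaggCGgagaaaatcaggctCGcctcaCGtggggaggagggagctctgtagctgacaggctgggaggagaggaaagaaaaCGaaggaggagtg
Robo2, start farthest from it, chr16:74411776-74412075, minus strand: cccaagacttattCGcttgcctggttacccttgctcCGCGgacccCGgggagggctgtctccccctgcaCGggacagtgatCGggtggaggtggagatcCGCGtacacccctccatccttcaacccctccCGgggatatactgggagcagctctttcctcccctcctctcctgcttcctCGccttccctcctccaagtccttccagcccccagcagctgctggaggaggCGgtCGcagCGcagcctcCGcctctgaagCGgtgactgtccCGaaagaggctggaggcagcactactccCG
Robo1, chr16:72662899-72663198, plus strand: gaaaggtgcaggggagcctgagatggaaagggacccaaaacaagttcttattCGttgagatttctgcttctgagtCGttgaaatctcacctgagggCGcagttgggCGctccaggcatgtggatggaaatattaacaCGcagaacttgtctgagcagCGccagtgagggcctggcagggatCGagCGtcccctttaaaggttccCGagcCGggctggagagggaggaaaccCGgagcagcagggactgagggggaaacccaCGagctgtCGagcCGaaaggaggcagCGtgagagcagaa
Epha3, chr16:63864126-63864425, minus strand: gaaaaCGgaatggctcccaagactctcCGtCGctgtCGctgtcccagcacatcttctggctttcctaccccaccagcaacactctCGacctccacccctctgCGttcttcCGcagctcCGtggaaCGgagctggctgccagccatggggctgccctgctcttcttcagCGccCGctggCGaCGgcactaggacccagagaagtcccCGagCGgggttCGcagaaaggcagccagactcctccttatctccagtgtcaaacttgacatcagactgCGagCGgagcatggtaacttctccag
The nearest Robo2 window held 9 CG dinucleotides and the farthest 17, Robo1 held 15 and Epha3 18. As many as 9 CG were found in 45.8% of the 32851 promoter windows in the table, as many as 15 in 34.6% and as many as 18 in 29.7%. Over the 74 windows of the 58 members that the table holds, the median was 18.5 CG per window, against 7 over all windows. The arrays do not show which start was used.

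Robo2 levels overlapped between the groups. In Dp3Yah replicates 1 to 5 Robo2 was at 8.63, 8.72, 8.94, 8.73 and 8.68, and in control replicates 1 to 5 at 8.57, 8.89, 8.58, 8.68 and 8.52. The highest control, replicate 2, was above 4 of the 5 Dp3Yah mice, and 1 Dp3Yah mouse was above all controls. The difference was 0.09 (SE 0.074, 95% confidence interval -0.07 to 0.25, limma adjusted p = 0.939, exact permutation p = 0.341, two-sided). Dentate granule cell markers were lower in Dp3Yah mice for 11 of 14 genes, with means of 7.76 to 8.03 against 7.89 to 8.10 in controls. Of the 14, limma gave 4 an unadjusted p under 0.05, all lower (2.59% of all genes), and none passed after adjustment. With their mean as a covariate the Robo2 difference turned to -0.05. Because this covariate itself went with genotype, the 2 cannot be told apart here, and its part in the Robo2 levels was not tested.

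Robo1 levels spread widely in both groups, with no detectable difference between them. Dp3Yah replicates 1 to 5 had Robo1 levels of 9.36, 9.51, 8.85, 9.23 and 9.24, and control replicates 1 to 5 had 9.39, 8.90, 9.27, 9.15 and 9.39. The Dp3Yah mice held both the highest and the lowest value, in replicates 2 and 3. The difference was 0.02 (SE 0.119, 95% confidence interval -0.24 to 0.27, limma adjusted p = 0.993, exact permutation p = 0.889), and leaving out single mice moved it between -0.06 and 0.11, and it fell below 0 when any of 4 mice (Dp3Yah replicates 1 and 2, control replicates 2 and 4) was omitted.

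Epha3 was the member of the 3 with the largest difference. Its levels were 6.49, 6.47, 6.29, 6.42 and 6.25 in Dp3Yah replicates 1 to 5 and 6.27, 6.30, 6.24, 6.28 and 6.09 in control replicates 1 to 5. Replicates 1, 2 and 4 of the Dp3Yah group were above all controls, and the other 2 were among them. The difference of 0.15 (SE 0.058, 95% confidence interval 0.02 to 0.27) had a limma unadjusted p of 0.0236 and an adjusted p of 0.922 over all genes. The exact permutation p was 0.0635, and 0.190 when adjusted over the 3 genes. The smallest unadjusted p that 252 assignments allow is 0.00794. The Epha3 difference kept its direction without each mouse in turn, between 0.11 (without control replicate 5, the lowest control) and 0.18.

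The differences did not run in the order of the distances to the duplication. Between Epha3 and Hspa13, Rbm11, an RNA-binding protein gene 152 kb from Hspa13, was 0.26 higher (SE 0.069, limma adjusted p = 0.922), with 5 of 5 Dp3Yah mice above all controls. Robo2, the next guidance gene after it, was 0.09 higher, Robo1 0.02 and Epha3 0.15. Farther away on the chromosome, Epha6 (15.1 Mb from Hspa13) was 0.12 higher, Sema5b (40.1 Mb) was 0.01 lower (-0.01) and Ephb3 (54.5 Mb) was 0.08 higher, and none passed limma's test (adjusted p = 0.939, 0.987 and 0.943). These 6 members are 8.82% of the guidance genes, and 3.26% of all genes with a RefSeq position lie on this chromosome.

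**Figure D2:**
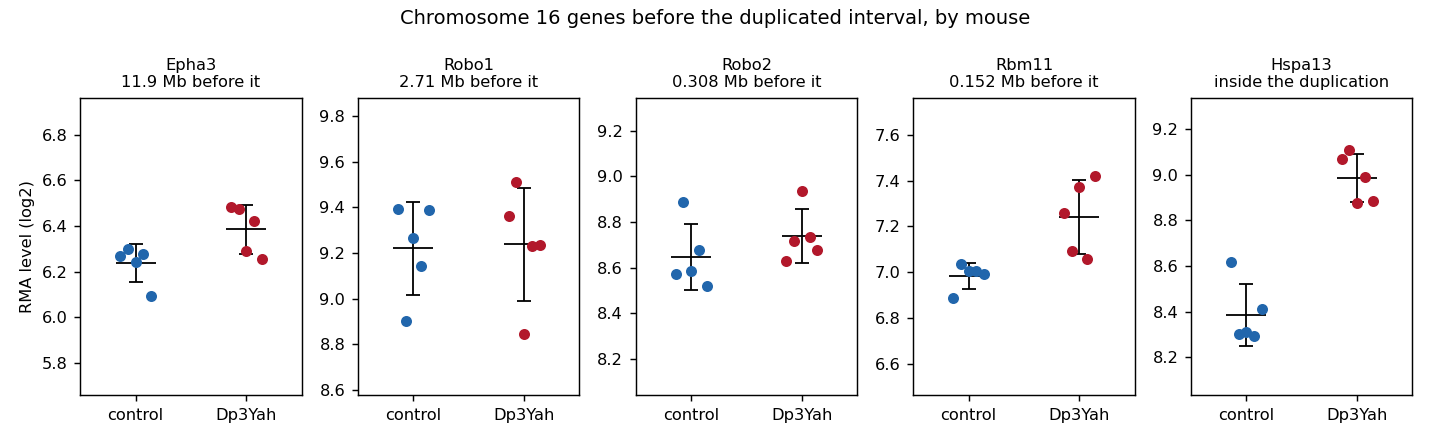
RMA level (vertical axis, log2, each panel spanning the same range) in each control and Dp3Yah mouse for 3 guidance receptor genes and their neighbour Rbm11, which lie before the duplicated interval at the distance given, and for Hspa13 inside it. Points are mice, horizontal lines are means and bars are SDs (n = 5 per group). The groups separate for Hspa13 and Rbm11 and overlap for Epha3, Robo1 and Robo2.

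Without adjustment, 3 members were higher at p under 0.05 (2.49% of all genes) and 3 were lower (2.59% of all genes). The 3 higher genes were Epha3, Sema3c and Sema4f, and the 3 lower ones Sema3f, Sema7a and Robo3. Groups did not overlap for 2 members, Sema3f and Ntn5, against 0.913% of all genes, and both were lower in Dp3Yah mice (0.391% of all genes). Mean levels of Robo3 (4.90), Ntn5 (5.75) and Epha3 (6.31) lay below the median level of all genes (6.38). The rank test used by the study put 7 members past its thresholds, against 4.59% of all genes: Epha3, Sema3c, Sema3d and Sema3e above, and Sema3f, Sema5a and Sema7a below.

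Among the ligands, the semaphorins held 4 of the 6 genes with an unadjusted p under 0.05, and the family as a whole did not shift. Of its 20 members 9 were higher and 11 lower, with a median of -0.01. Sema3f, a secreted repellent that acts through neuropilin-2 (chr9:107681499-107710475), was at 6.45, 6.28, 6.58, 6.56 and 6.54 in Dp3Yah replicates 1 to 5 and at 6.59, 6.73, 6.60, 6.64 and 6.77 in control replicates 1 to 5. Every Dp3Yah mouse was below every control, though Dp3Yah replicate 3 and control replicate 1 were close. The difference was -0.18 (SE 0.062, 0.88-fold, limma unadjusted p = 0.0121, adjusted p = 0.922). With pyramidal cell markers as a covariate it was -0.12. Sema7a, a membrane-anchored semaphorin that promotes axon growth through integrins (chr9:57939596-57962865), was at 9.63, 9.53, 9.56, 9.79 and 9.57 in Dp3Yah replicates 1 to 5 and at 9.69, 9.78, 9.67, 9.84 and 9.84 in controls. Of the Dp3Yah mice 4 lay below all controls and replicate 4 among them, and the difference was -0.15 (SE 0.056, limma adjusted p = 0.922).

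Sema3c, a secreted ligand of both neuropilins (chr5:17574816-17730268), was at 7.12, 7.19, 7.02, 7.08 and 7.08 in Dp3Yah replicates 1 to 5 and at 6.99, 6.84, 6.96, 6.97 and 7.08 in controls. The difference was 0.13 (SE 0.050, limma adjusted p = 0.922), with 2 Dp3Yah mice above all controls. Sema4f, a membrane semaphorin found at synapses (chr6:82911884-82939769), was at 7.14, 6.91, 7.12, 7.08 and 6.98 in Dp3Yah replicates 1 to 5 and at 6.93, 6.96, 6.96, 6.92 and 6.92 in controls. Here 4 Dp3Yah mice lay above all controls and replicate 2 lay below them, and the difference was 0.11 (SE 0.048, limma adjusted p = 0.922). By class, the median difference was 0.12 for the 7 class 3 semaphorins, of which 5 were higher, and -0.02 for the 6 of class 4.

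**Figure D3:**
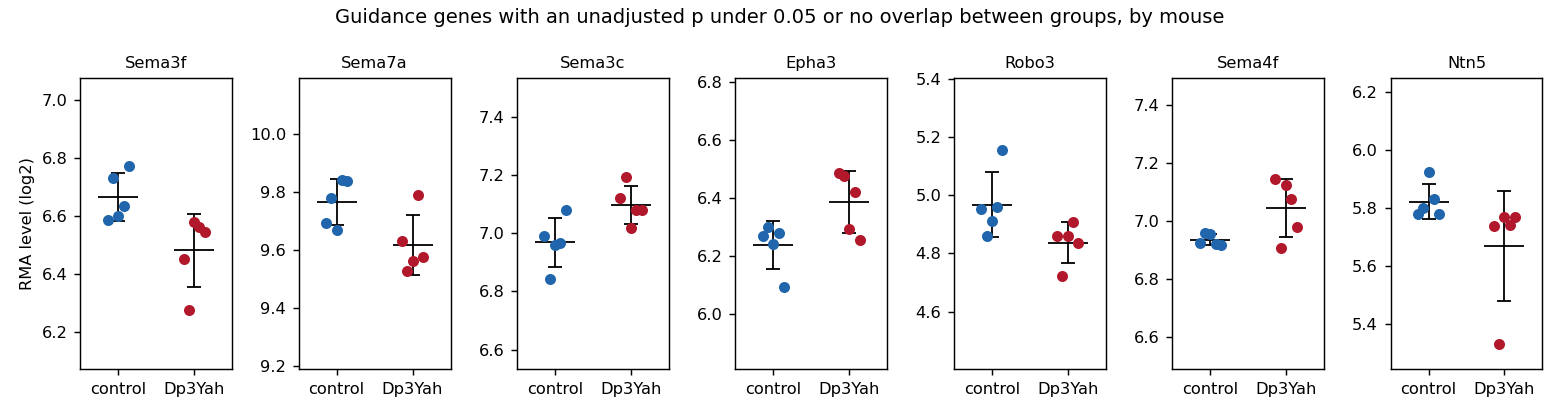
RMA level (vertical axis, log2, each panel spanning 1 unit) in each control and Dp3Yah mouse for the 7 guidance genes with an unadjusted p under 0.05 or with groups that did not overlap, ordered by p. Points are mice, horizontal lines are means and bars are SDs (n = 5 per group). The Ntn5 panel shows 4 Dp3Yah mice just under the controls and 1 far below.

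Plexins and neuropilins, the receptors of the semaphorins, differed by at most 0.11. Of 9 plexins 8 were higher, Plxna1 by only 1.07e-05, with a median of 0.04, and none had an unadjusted p under 0.05. Plxnc1, the receptor of Sema7a, was 0.08 higher (SE 0.061) and Plxna4, which signals for Sema3a with neuropilin-1, was 0.11 lower (-0.11, SE 0.088), with an adjusted p of 0.939 for each by limma. With dentate granule cell markers as a covariate the Plxna4 difference turned to 0.06. Nrp2, the receptor of Sema3f, differed by 0.09 (SE 0.085) and Nrp1, the receptor of Sema3a, by -0.02 (SE 0.111). Nrp2 was tightly grouped in Dp3Yah mice (SD 0.05), with control replicate 2 alone far down at 7.34, and without that mouse the Nrp2 difference was 0.006. The sign of the Nrp1 difference turned with dentate markers as a covariate (0.02).

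Eph receptors and ephrins showed no shift in common. Of 13 Eph receptors 8 were higher, Ephb1 by only 0.0004, with a median of 0.005. After Epha3, the smallest p among them was that of Ephb4, the ephrin-B2 receptor of veins, with a difference of 0.05 (SE 0.037, limma adjusted p = 0.939). Of the 8 ephrins 2 were higher and 6 lower, with a median of -0.01. Efnb1, a transmembrane ligand of EphB receptors, was 0.11 lower (-0.11, SE 0.073) and Efna3, a membrane-anchored ligand of EphA receptors, 0.08 higher (SE 0.055), with limma adjusted p of 0.926 and 0.934. The 5 ephrin-A genes, whose products bind EphA receptors, showed differences from -0.04 to 0.08.

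The Slit and Robo families showed no common direction. Robo3, a receptor needed for midline crossing (chr9:37416045-37433436), was at 4.86, 4.72, 4.86, 4.91 and 4.83 in Dp3Yah replicates 1 to 5 and at 4.95, 4.86, 4.91, 4.96 and 5.16 in controls, a difference of -0.13 (SE 0.057, limma adjusted p = 0.922). Control replicate 5 was the highest mouse and 2 Dp3Yah mice lay below all controls. Robo4, a Robo of blood vessels, differed by -0.06 (SE 0.048). Of the ligands, Slit2 was 0.14 higher (SE 0.096, limma adjusted p = 0.935) and Slit1 0.03 higher (SE 0.089), while Slit3 stood at -0.01. Without Dp3Yah replicate 2 the Slit2 difference was 0.06 and that of Slit1 turned to -0.04, and with pyramidal cell markers as a covariate they were 0.03 and -0.08.

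Among netrins and their receptors, Ntn5 (chr7:45684022-45694556), a secreted netrin, had groups that did not overlap. It was at 5.74, 5.33, 5.77, 5.74 and 5.77 in Dp3Yah replicates 1 to 5 and at 5.78, 5.80, 5.92, 5.83 and 5.78 in control replicates 1 to 5. The difference was -0.15 (SE 0.078, limma unadjusted p = 0.0732, adjusted p = 0.922), and without Dp3Yah replicate 2 it was -0.07. Ntn1, the founding netrin, differed by -0.09 (SE 0.064). Dcc, its attractive receptor, was 0.11 higher (SE 0.081) and Unc5a, a repulsive one, 0.06 lower (-0.06, SE 0.068), and 3 of the 5 netrin receptors were lower. With pyramidal cell markers as a covariate the Dcc difference was 0.02.

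Between mice of the same group the guidance genes spread more widely, in the median, than all genes did. The median within-group SD was 0.13 over the members and 0.09 over all genes. Considering only genes above the median level, it was 0.13 and 0.10. An SD over 0.2 was found for 8 members (11.8%) and for 4.11% of all genes. The 5 most variable members were Plxnd1 (SD 0.43), Efna5 (0.41), Sema3a (0.32), Plxnb3 (0.28) and Unc5d (0.27).

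Plxnd1, the receptor of Sema3e, was at 8.01, 7.44, 8.57, 8.17 and 8.27 in Dp3Yah replicates 1 to 5 and at 7.49, 8.65, 7.94, 8.16 and 7.76 in controls. Efna5, an ephrin-A ligand of axon maps, was at 7.16, 6.52, 7.52, 7.45 and 7.40 in Dp3Yah replicates 1 to 5 and at 6.87, 7.71, 6.65, 7.28 and 7.23 in controls. Both were low in Dp3Yah replicate 2 and highest in control replicate 2. Sema3a, a repellent of the hippocampal projections, was highest in the same control mouse (6.37) and in Dp3Yah replicate 3 (6.35), and at 5.53 to 5.97 in the other 8. Plxnb3, a plexin of oligodendrocytes, was lowest in those 2 mice (6.51 and 6.46). Unc5d ranged from 6.76 in Dp3Yah replicate 2 to 7.66 in Dp3Yah replicate 3, and its second probe set gave a difference of 0.11 where the one used gave -0.05. None of the 5 passed the test between groups (limma adjusted p from 0.960 to 0.985).

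**Figure D4:**
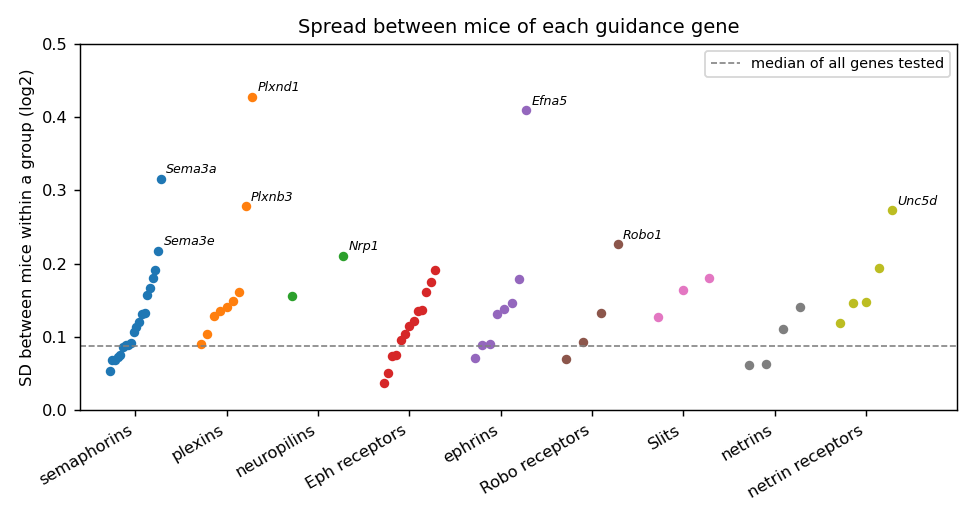
SD between mice within a group (vertical axis, log2, both groups pooled) for each guidance gene, by family. The dashed line is the median of all 19939 genes (0.09), and the 8 genes named lie above 0.2.

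The levels of some members went with those of regional marker genes in the same mouse. Each of the 68 members was related to the mean of 14 dentate granule cell markers, of 12 pyramidal cell markers and of 12 markers of neocortex and subiculum over the 10 mice, which made 204 relations with Benjamini-Hochberg adjustment over all of them. At an adjusted permutation p under 0.05, Pearson's r held for 3 members with dentate markers, 8 with pyramidal markers and 10 with neocortex and subiculum markers. Of these 21 relations 5 also passed by Spearman's coefficient, 1 with dentate, 4 with pyramidal and 0 with neocortex and subiculum markers. Without the 2 mice farthest from the median of the markers, the size of r was 0.80 to 0.96, 0.40 to 0.93 and 0.47 to 0.91 for the 3 lists in that order. An r of at least 0.8 in size with pyramidal markers was found for 13.2% of the members and 2.18% of all genes outside the marker list, with neocortex and subiculum markers for 14.7% and 3.76%, and with dentate markers for 4.41% and 1.40%. For these shares, all genes were not matched to the members in level or in spread between mice. Of the members, 76.5% were above the median level of all genes. The median within-group SD was 0.13 over the members and 0.09 over all genes. Whether the members' shares would be higher than those of matched genes was not tested. Both values of a relation came from the same array and its normalisation. The 3 lists were taken from the same mice, so the relations are not independent of each other. Slit2, for instance, passed by r with pyramidal markers (positive) and with neocortex and subiculum markers (negative). In whole tissue, fewer cells of a type and less RNA per cell cannot be told apart.

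Epha6, an EphA receptor gene of this chromosome, rose and fell with the pyramidal markers. Its r was 0.96 (permutation p = 2e-05, adjusted 0.00204) and its Spearman coefficient 0.92 (permutation p = 0.00052, adjusted 0.0257), and r was 0.93 without the 2 mice farthest from the median of the markers. Sema3e, Slit1 and Epha4 passed by both measures as well, with r of 0.94, 0.94 and 0.90, which became 0.83, 0.87 and 0.81 without those mice. Sema5a, a transmembrane semaphorin, went with the dentate markers, with an r of 0.96 (permutation p = 2e-05, adjusted 0.00204) both with and without the 2 farthest mice and a Spearman coefficient of 0.95 (permutation p = 7e-05, adjusted 0.0143). Efna5 and Plxnd1 went with the markers of neocortex and subiculum by r and missed the threshold by the Spearman coefficient. For Efna5, r was 0.85 (permutation p = 0.00074, adjusted 0.0184), Spearman coefficient 0.82 (permutation p = 0.00575, adjusted 0.0782) and r without the 2 farthest mice 0.68. For Plxnd1, r was 0.83 (permutation p = 0.00182, adjusted 0.0268), Spearman coefficient 0.75 (permutation p = 0.0168, adjusted 0.142) and r without the same mice 0.70. Several of these genes ran the other way with the other list, without passing. With neocortex and subiculum markers, r was -0.69 for Epha6, -0.74 for Sema3e and -0.78 for Epha4. With pyramidal markers it was -0.79 for Efna5 and -0.66 for Plxnd1. Whether a gene follows 1 region or a difference between mice that moves both lists was not tested.

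Robo2 and Robo1 ran against different markers, each by r and not by the Spearman coefficient at the adjusted threshold. Robo2 was lower where dentate markers were higher, with an r of -0.87 (permutation p = 0.00084, adjusted 0.0184) and a Spearman coefficient of -0.83 (permutation p = 0.00477, adjusted 0.0724). Without the 2 farthest mice its r was -0.80, and with each group centred on its own mean -0.87. Robo1 was lower where neocortex and subiculum markers were higher, with an r of -0.80 (permutation p = 0.00389, adjusted 0.0414) and a Spearman coefficient of -0.83 (permutation p = 0.00449, adjusted 0.0724), and the same checks gave -0.70 and -0.80. Epha3 passed with none of the 3 lists (adjusted permutation p from 0.214 to 0.694). Sema3f ran against the pyramidal markers, with an r of -0.81 (permutation p = 0.00397, adjusted 0.0414) and a Spearman coefficient of -0.59 (permutation p = 0.0803, adjusted 0.375). That relation rested on Dp3Yah replicates 1 and 2, the mice farthest from the median, and was -0.40 without them. The mean of the pyramidal markers was 8.59 to 8.96 in Dp3Yah mice and 8.58 to 8.79 in controls, and 9 of 12 were higher in Dp3Yah mice.

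**Figure D5:**
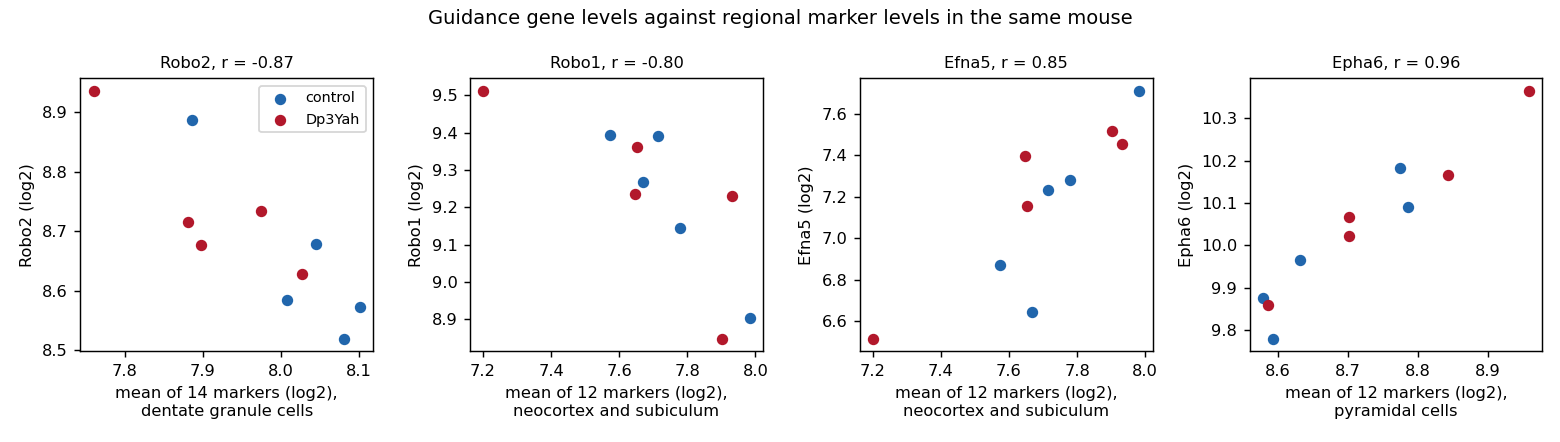
RMA level of 4 guidance genes (vertical axes, log2) against the mean level of a list of regional marker genes in the same mouse (horizontal axes, log2), for 5 control and 5 Dp3Yah mice. Robo2 and Robo1 fall with their markers (r of -0.87 and -0.80), Efna5 and Epha6 rise (0.85 and 0.96), and control and Dp3Yah points mingle in each panel.

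Downstream of the receptors, 81 of 86 listed signalling genes were measured, among them collapsin response mediators and adaptors. Limma's test over all genes called none of them. The unadjusted p was under 0.05 for 2, both higher in Dp3Yah mice (2.49% of all genes). The rank test called 1 (4.59% of all genes), and groups did not overlap for 1, Rasa1 (0.913% of all genes). Of the 81, 37 were higher and 44 lower, with a median of -0.004. The smallest p was that of Dpysl4, a collapsin response mediator of semaphorin signalling, which was at 7.10, 6.86, 7.12, 7.16 and 7.15 in Dp3Yah replicates 1 to 5 and at 6.79, 6.93, 6.79, 6.91 and 6.94 in controls. Its difference was 0.21 (SE 0.061, limma adjusted p = 0.922), with 4 of 5 Dp3Yah mice above all controls and replicate 2 among them. Ablim3, an actin-binding protein related to a netrin effector, was 0.12 higher (SE 0.055), and Mical3, of the oxidase family that acts downstream of plexins, 0.14 lower (-0.14, SE 0.069). Rasa1, a Ras GTPase-activating protein that binds Eph receptors, had a difference of means of 0.08 (SE 0.042). It was above all controls in 5 of 5 Dp3Yah mice, but barely: the lowest Dp3Yah level was 8.498 and the highest control 8.497. Sos1, which Robo receptors recruit to act on Rac, was 0.10 higher (SE 0.054), and Siah1a, a ubiquitin ligase of Dcc, 0.11 higher (SE 0.059). By group, effectors of Eph receptors and ephrins had a median of -0.05 over 14 genes and effectors of plexins and neuropilins 0.02 over 24, and no group held more than 1 gene with an unadjusted p under 0.05.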

How the data were processed

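The authors hybridised hippocampal RNA of 10 mice to Affymetrix Mouse Gene 1.0 ST arrays and deposited log2 values per probe set. Named in the submitters' processing notes are limma, mm10 and RMA, which corrects background, normalises arrays and summarises probes, with versions not given in the sources used here. RMA puts all arrays on one distribution, so a shift of most genes together cannot be seen. Probe sets named for 1 gene (21789 of 35556, by the platform annotation) were kept, with the brightest for each of 998 genes with several, giving 19939 genes. Symbols and GRCm38.p6 positions came from RefSeq by gene identifier (19856 genes).

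Groups were compared with limma 3.58.1 under R 4.3.3 (lmFit, then eBayes, two-sided, no covariate, Benjamini-Hochberg adjustment over all genes, threshold 0.05). Robo1, Robo2 and Epha3 were also compared by exact permutation, and the study's rank test (FCROS, trim 0.25, thresholds of f at 0.025 and 0.975) was rewritten from its principle. Relations used 100000 permutations. No set test was run. The number of arrays limits the precision. Each array is a separate mouse.

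Members and lists were chosen with earlier results of these data known. The rule for named genes took Robo1, Robo2 and Epha3, members with an unadjusted p under 0.05 or no overlap between groups, the 2 smallest p per family, the 5 most variable members, 6 signalling genes with the smallest p, Hspa13, Ncam2, Mrpl39 and Rbm11. Sema3d, Sema3e, Sema5a, Epha6, Sema5b, Ephb3, Slit3 and Epha4 were named after their values were seen. On simulated data for this comparison (19939 genes), limma recovered 94 of 100 genes changed 1.5-fold and 98 of 100 changed 2-fold, with 6 false calls; far more genes changed there than were called here, so these shares are not the power of the real comparison. Alternatives were a replicate block, other probe set summaries, genes above the median only, renewed quantile normalisation, centring on array medians, other variance models, array weights, marker covariates and leaving out each mouse.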

Additional observations from a re-analysis of the deposited data

Results flagged for a closer look

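Of 66 groups of 5 mice (33 named genes), 8 held a mouse far from the other 4. Chance gives about 1 in 20 for independent groups of genes chosen without their values. These genes were named partly by their values and share the same mice, so 8 of 66 cannot show an excess. Dp3Yah replicate 2 was the outlying mouse for 4 genes: Ntn5 at 5.33 against 5.74 to 5.77 in the others of its group, Slit2 at 8.47 against at most 8.10, Dpysl4 at 6.86 against 7.10 to 7.16, and Rasa1 at 8.63 against 8.50 to 8.53. Dp3Yah replicate 3 was the outlying mouse for Efnb1 (7.11 against 6.85 to 6.88) and Plxnb3 (6.46 against 7.05 to 7.19). Control replicate 5 was low for Epha3 (6.09 against 6.24 to 6.30), and control replicate 2 high for Sema3a (6.37 against 5.53 to 5.71). Dp3Yah replicate 2 also had the lowest neocortex and subiculum marker mean (7.20 against 7.57 to 7.98 in the other 9 mice) and the highest pyramidal marker mean (8.96). The part of these marker levels in the single values was not tested.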

How the results depend on the processing

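Over 24 alternatives, no guidance gene passed limma's test in any that used it, and 18 of 27 named members kept their sign in all that gave them a value. The rank test, the exception, put 7 members and 1 signalling gene past its thresholds. With dentate markers as a covariate the sign turned for Robo2 (-0.0525), Efna5 (-0.11), Nrp1 (0.0232), Plxna4 (0.0635), Plxnd1 (-0.23) and Sema3a (-0.19). The dentate marker mean itself differed by -0.12 between Dp3Yah and control mice, so this covariate and the genotype cannot be fully told apart. Robo1 turned with array weights (-0.0135) and with neocortex and subiculum (-0.0419), pyramidal (-0.0798) or choroid plexus markers (-0.00869). Slit1 turned with neocortex and subiculum (-0.0108) and pyramidal markers (-0.0790), and Unc5d with the mean of its probe sets (0.0311), neocortex and subiculum (0.0290) and pyramidal markers (0.10). Leaving out 1 mouse at a time gave -0.0617 to 0.115 for Robo1, 0.04 to 0.15 for Robo2, 0.11 to 0.18 for Epha3, -0.0661 to 0.233 for Efna5, -0.0853 to 0.0745 for Nrp1, -0.0353 to 0.255 for Plxnd1, -0.0388 to 0.0868 for Slit1 and -0.136 to 0.0881 for Unc5d. Members with an unadjusted p under 0.05 numbered 3 among genes above the median level, 10 with dentate markers, 3 with pyramidal markers, and 3 to 8 without 1 mouse. Members whose groups did not overlap numbered 1 with quantile normalisation repeated, 1 with median centring, 1 among genes above the median level, and 2 to 4 without 1 mouse. The cause was not tested. These counts of members are given without the share of all genes in the same setting, so they cannot show an excess over the background. Same-numbered mice did not deviate together (r from -0.36 to 0.32), and with a replicate block 0 members were called and 6 had an unadjusted p under 0.05, as without it. Over all genes limma called 1 with all probe sets, 6 with a trended and robust variance, 5 with array weights, 5 with the first component as a covariate and 1 to 4 without 1 mouse, and the rank test 915. The covariates of neocortex and subiculum, pyramidal and choroid plexus markers were chosen after seeing the data.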
